A study of Mus musculus with 9 samples.

Results

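The 10 genes of MHC class I presentation described here were H2-K1, H2-D1, H2-T23, B2m, Tap1, Tap2, Tapbp, Nlrc5, Erap1 and Pdia3, taken by symbol from the deposited table of 23420 genes. All 10 were found, and all 10 passed the filter on low values that 11357 genes passed, a mean of at least 10 normalized counts over the 9 libraries. RNA was sequenced from regulatory T cells (Tregs), CD4 T cells that express Foxp3 and hold other immune cells in check, of mice labelled wild type (WT). There were 3 groups of 3 libraries each: synovial Tregs from the joints of mice with collagen-induced arthritis, Tregs from the draining lymph nodes of mice with collagen-induced arthritis, and draining node Tregs of control mice labelled as having no treatment. Collagen-induced arthritis is a model of inflammatory joint disease in which mice are immunized with collagen. Paws and nodes of all groups were digested, and cells were sorted on the YFP of a Foxp3 reporter, so each library holds what that gate collected. The sources used here do not give strain, age or sex. H2 genes differ in sequence between mouse strains and mm10 carries the C57BL/6J forms, so reads from another haplotype would map less completely; the effect of this on the H2 counts was not tested.

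Class I molecules show fragments of a cell's own proteins to CD8 T cells and to natural killer cells. A heavy chain (H2-K1 and H2-D1 encode the classical ones, H2-T23 the nonclassical Qa-1) pairs with the light chain β2-microglobulin, encoded by B2m. Peptides cut by the proteasome enter the endoplasmic reticulum through the Tap1-Tap2 transporter, are trimmed by the aminopeptidase Erap1, and are loaded with the help of tapasin (Tapbp) and the disulfide isomerase ERp57 (Pdia3). Nlrc5 is a transactivator that acts on class I promoters together with factors bound at the X and Y boxes, and NF-κB and interferon regulatory factors (IRFs) act through sites upstream of them.

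The promoters of H2-K1, H2-D1 and B2m are shown first because these 3 genes were called higher in synovial Tregs, with those of Tap1 and H2-T23, which were not, for contrast. RefSeq promoters on GRCm38.p6, from 250 bases before to 50 bases after the annotated start, were matched by symbol for 8 of the 10 genes, Tap2 and Nlrc5 being the others. RefSeq lists 2 promoters for H2-K1, and the first was used. Capitals mark 4 motifs searched on both strands: an NF-κB type site (GGGA, then 4 bases of any kind, then CC), an IRF type site (AANNGAAA), the core shared by the X2 box and the CRE (TGACG), and the CCAAT box. The letters were set after these promoters had been read, so the matches are a description.
H2-K1, chr17:34000298-34000597, minus strand: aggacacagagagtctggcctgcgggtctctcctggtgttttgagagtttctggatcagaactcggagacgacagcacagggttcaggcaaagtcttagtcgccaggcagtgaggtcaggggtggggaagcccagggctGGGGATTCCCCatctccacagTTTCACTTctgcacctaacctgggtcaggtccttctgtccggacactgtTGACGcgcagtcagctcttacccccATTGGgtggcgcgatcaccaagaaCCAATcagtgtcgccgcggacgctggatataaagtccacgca
H2-D1, chr17:35262844-35263143, plus strand: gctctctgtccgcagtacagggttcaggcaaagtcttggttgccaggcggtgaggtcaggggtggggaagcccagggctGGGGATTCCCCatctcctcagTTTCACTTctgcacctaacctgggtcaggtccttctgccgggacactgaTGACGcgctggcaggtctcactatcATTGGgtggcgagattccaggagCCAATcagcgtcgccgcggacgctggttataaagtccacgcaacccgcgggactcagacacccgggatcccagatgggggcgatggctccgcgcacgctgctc
B2m, chr2:122147437-122147736, plus strand: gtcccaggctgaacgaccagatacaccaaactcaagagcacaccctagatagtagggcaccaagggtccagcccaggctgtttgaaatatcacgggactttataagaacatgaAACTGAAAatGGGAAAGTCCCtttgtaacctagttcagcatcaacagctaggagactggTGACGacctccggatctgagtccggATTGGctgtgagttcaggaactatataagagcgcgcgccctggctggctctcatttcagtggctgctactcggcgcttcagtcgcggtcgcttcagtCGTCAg
H2-T23, chr17:36032652-36032951, minus strand: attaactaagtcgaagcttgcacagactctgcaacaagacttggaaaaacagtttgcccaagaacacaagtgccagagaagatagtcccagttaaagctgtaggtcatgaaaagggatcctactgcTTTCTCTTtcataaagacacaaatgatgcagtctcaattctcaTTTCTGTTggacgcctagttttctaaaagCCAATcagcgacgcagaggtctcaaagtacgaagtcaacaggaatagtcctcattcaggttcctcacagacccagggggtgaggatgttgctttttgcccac
Tap1, chr17:34187306-34187605, plus strand: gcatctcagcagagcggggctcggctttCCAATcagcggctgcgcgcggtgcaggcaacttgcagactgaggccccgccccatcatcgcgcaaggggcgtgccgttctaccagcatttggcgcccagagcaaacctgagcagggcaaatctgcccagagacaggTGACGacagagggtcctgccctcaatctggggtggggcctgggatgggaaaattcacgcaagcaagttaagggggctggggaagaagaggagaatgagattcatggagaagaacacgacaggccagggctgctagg

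H2-K1, H2-D1 and B2m were the promoters among the 8 that held all 4 motifs, a combination found in 89 of 27025 RefSeq promoters (0.329%). As the letters were set after these promoters had been read, that share does not measure how unusual their matches are. Tap2 and Nlrc5, both called lower in synovial Tregs, had no promoter here, so motifs were not tested against the calls. Singly, the NF-κB type letters occurred in 20.5% of those promoters, the IRF type in 24.2%, TGACG in 21.0% and CCAAT in 37.9%. In each of the 3, the NF-κB type letters matched on both strands at almost the same place, as the motif reads nearly the same in either direction. In H2-K1 these matches ran from base -111 to -101, the IRF type letters from -90 to -83, TGACG from -41 to -37 and the nearest upstream CCAAT from -16 to -12. H2-D1 had the same order farther upstream, with the NF-κB type letters from -171 to -161 and TGACG from -101 to -97. In B2m the IRF type letters stood upstream of the NF-κB type ones, at -137 to -130 against -127 to -117. H2-T23 held 2 IRF type matches and 1 CCAAT. Tap1 held TGACG and CCAAT, as 8.05% of promoters did, and Pdia3 held 1 TGACG and 2 CCAAT. Tapbp held 2 CCAAT and Erap1 held 1 IRF type match across the start. A motif that was not found says only that these letters are not in this window.

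**Figure D1:**
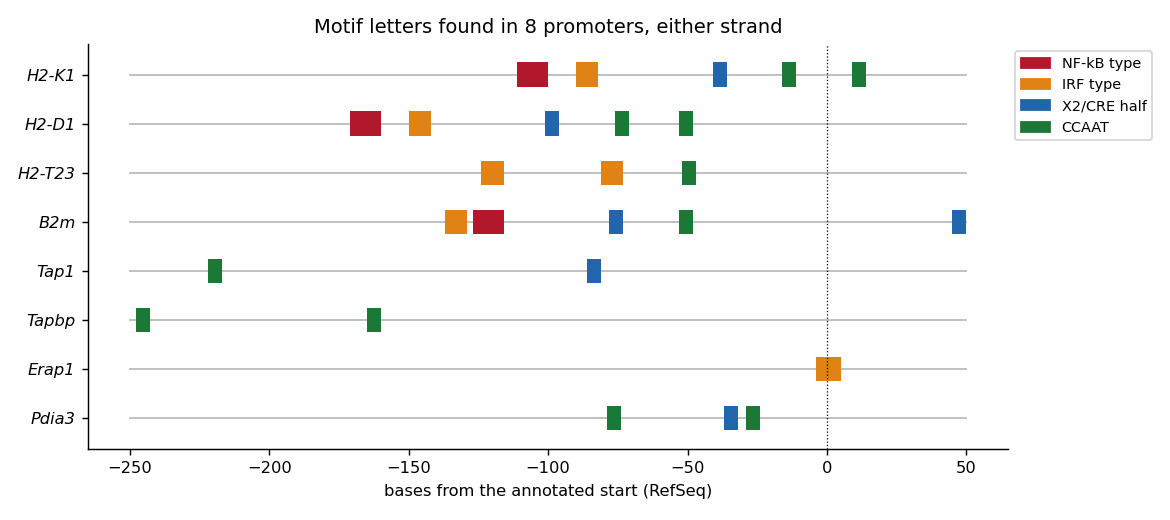
Position of each motif match in the 8 RefSeq promoters, in bases from the annotated start (horizontal axis, dotted line at the start), with genes in rows and motifs as coloured blocks. H2-K1, H2-D1 and B2m carry all 4 colours, with the NF-κB and IRF type blocks lying together upstream of the TGACG and CCAAT blocks.

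Reads counted on genes numbered 11300406 to 12855435 per library, from 11770 to 13118 detected genes. Values below are normalized counts, the gene's reads divided by a size factor of the library. The 8 listed T cell and Treg markers were detected in every group, and Foxp3 averaged 465 ± 65.3 in synovial, 269 ± 41.0 in arthritic node and 266 ± 123 in control node Tregs (SD, n = 3 each). Genes of tissue dissociation and stress were far higher in synovial libraries: their 11 values summed to 103335 to 140221 in synovial, 11191 to 18254 in arthritic node and 10234 to 14867 in control node libraries. Of these 11 genes, 9 were called higher in synovial than in arthritic node Tregs and none lower, and their part in the results below was not tested. In bulk RNA, fewer cells of a type and less RNA per cell cannot be told apart.

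Compared with node Tregs of the same arthritic mice, synovial Tregs had higher normalized counts of the classical heavy chains and lower ones of Tap2, Tapbp and Nlrc5. The light chain gene B2m was also called higher, but that call was lost when most single libraries were left out. H2-K1 was 1.60-fold, H2-D1 1.49-fold and B2m 1.23-fold higher. H2-T23, Tap1, Erap1 and Pdia3 did not pass the test. With limma on log2(normalized count + 1) and a Benjamini-Hochberg adjusted p under 0.05 as the threshold, 3 of the 10 genes were called higher, beside 17.9% of all genes tested, and 3 were called lower, beside 15.9%. Calls in either direction made up 33.8% of all genes. Abundant genes were called more often. With a mean of 1000 to 10000, a range that holds H2-T23, Tap1, Tap2, Nlrc5 and Erap1, 31.0% were called higher and 21.2% lower. With a mean of 10 to 100, these shares were 9.08% and 7.73%. The shares over all genes given beside counts of calls, here and below, mix these levels. The median log2 fold change was -0.09 for the 10 genes and -7.25e-05 for all genes tested. The libraries of the groups did not overlap for 8 of the 10 genes, a pattern that 48.2% of all genes showed. In 3 of them the synovial libraries were the higher ones, and in 5 (Tap1, Tap2, Tapbp, Nlrc5 and Erap1) the lower ones.

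The heavy chains carried the clearest difference. H2-K1 had 70698.5, 80902 and 70975 normalized counts in synovial Tregs of mice 1, 2 and 3, against 45325, 48303 and 45469.9 in arthritic node Tregs and 47028, 44121 and 45702.5 in control node Tregs. Every synovial library lay above every node library, and the node libraries of both kinds overlapped. The log2 fold change of H2-K1 was 0.68 ± 0.09 (SE; limma, adjusted p = 0.000122). H2-D1 had 35069, 34847 and 38138 normalized counts in synovial Tregs, against 22696, 24612 and 25266 in arthritic node Tregs and 22379, 21202 and 22976 in control node Tregs. Again all synovial libraries were the highest, with a log2 fold change of 0.57 ± 0.09 (limma, adjusted p = 0.000323). Within a mouse, synovial H2-K1 was 1.56, 1.67 and 1.56 times the node value in mice 1, 2 and 3, and synovial H2-D1 was 1.55, 1.42 and 1.51 times the node value. Leaving out any library kept both calls.

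The scaling of the libraries bears on these sizes. Quantile normalization, which forces the libraries onto the same distribution of values, gave H2-K1 a log2 fold change of 0.41 with the call kept and put H2-D1 at 0.00 (limma, adjusted p = 0.991). That scaling moved the median over all genes tested to -0.12 and gave 1677 genes higher and 2338 lower, against 2034 higher and 1810 lower with the deposited scaling. The direction of abundant genes as a class depends on the scaling: the 43 genes with a mean of at least 20000, which include H2-K1, H2-D1 and B2m, had a median log2 fold change of 0.24 with the deposited scaling and of -0.26 after quantile normalization. Of these 43 genes, 46.5% were called higher and 27.9% lower. Parts of the heavy chain transcripts also match other class I genes: 9.63% of the 50-base stretches of H2-K1 transcripts and 12.8% of those of H2-D1 occur in another gene's transcripts, including each other's. The sources used here do not say how the authors' counting treated such reads.

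B2m, the light chain of all these complexes, changed less. Its normalized counts were 129280, 102713 and 110522 in synovial Tregs, 100129, 88828 and 88278 in arthritic node Tregs, and 93852, 93965 and 86693 in control node Tregs. The synovial libraries were the highest, but the lowest of them exceeded the highest arthritic node library by little. The log2 fold change was 0.30 ± 0.11, with a 95% interval of 0.07 to 0.54 and a limma adjusted p of 0.0480. This call was kept without synovial library 2 and lost without each of the other 8 libraries, with adjusted p between 0.0132 and 0.184 over the 9 fits. In a fit of the 6 arthritic libraries alone the adjusted p was 0.0959, and with mouse number as a block in that fit it was 0.0824, and after quantile normalization the log2 fold change was 0.00. The limma call was also lost with TMM scaling (adjusted p = 0.0652), no filter (0.0935) or a pseudocount of 0.5 (0.0508). As a share of all normalized counts, B2m overlapped between groups. It took 0.719% to 0.944% in synovial, 0.779% to 0.896% in arthritic node and 0.800% to 0.830% in control node libraries. The authors' deposited table gives B2m a log2 fold change of 0.28 with an adjusted p of 0.0776. B2m transcripts share no 50-base stretch with other genes.

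H2-T23, whose product Qa-1 presents peptides to the CD94/NKG2 receptors of natural killer and CD8 T cells, did not move with the classical heavy chains. It had 2157, 1565 and 2345 normalized counts in synovial Tregs, 2225, 2244 and 1971 in arthritic node Tregs, and 1882, 1894 and 1869 in control node Tregs. Synovial library 2 was the lowest of all 9 and synovial library 3 the highest, so the groups overlapped. The log2 fold change was -0.10 (95% interval up to 0.21; limma, adjusted p = 0.617), and without synovial library 2 it was 0.07.

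The transporter chain Tap2 and tapasin were lower in synovial Tregs. Tap2 had 5244, 4855 and 4620 normalized counts in synovial Tregs (mean 4906), against 6386, 7051 and 6507 in arthritic node Tregs and 5702, 5668 and 6890.3 in control node Tregs. The 3 synovial libraries were the lowest of the 9, at a log2 fold change of -0.44 ± 0.11 (limma, adjusted p = 0.00663), and the call was kept whichever library was left out. After quantile normalization the log2 fold change of Tap2 was -0.82. Tapbp had 9459.6, 8525 and 10606 normalized counts in synovial Tregs, against 11144, 12495 and 12275 in arthritic node Tregs and 11395, 10866 and 11946.5 in control node Tregs. All synovial libraries were again the lowest, with a log2 fold change of -0.33 ± 0.10 (limma, adjusted p = 0.0234). Tapbp lost its call without synovial library 1 (adjusted p = 0.0590), synovial library 2 (0.0608), arthritic node library 2 (0.0834) or arthritic node library 3 (0.0785), and with mouse number as a block in a fit of the 6 arthritic libraries (0.0512), which kept it without the block. After quantile normalization its log2 fold change was -0.84.

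Tap1, the partner of Tap2, pointed the same way without passing. It had 3446, 4049.8 and 3514 normalized counts in synovial Tregs, 4202, 5093 and 4463 in arthritic node Tregs, and 4220.4, 3331 and 4743 in control node Tregs. Synovial and arthritic node libraries did not overlap, while control node library 2 was the lowest of all. The log2 fold change was -0.32 ± 0.14 (limma, adjusted p = 0.0906), and with mouse number as a block in a fit of the 6 arthritic libraries its adjusted p was 0.0471; that fit did not call it without the block. Within each mouse, synovial Tap1 was 0.820, 0.795 and 0.787 times the node value, a narrow range over the 3 animals. After quantile normalization its log2 fold change was -0.63 (limma, adjusted p = 0.00436). The authors' deposited table gives Tap1 a log2 fold change of -0.34 with an adjusted p of 0.0398. The ratio of Tap1 to Tap2 counts averaged 0.751 ± 0.0889 in synovial, 0.689 ± 0.0322 in arthritic node and 0.672 ± 0.0775 in control node Tregs (SD, n = 3 each), with overlapping libraries.

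Nlrc5, the class I transactivator, was also lower in synovial Tregs, where the heavy chains it is known to activate were higher. Its normalized counts were 1467, 1014.5 and 1439.5 in synovial Tregs, against 1598, 1836 and 2051 in arthritic node Tregs and 1869, 1681 and 2101 in control node Tregs. All 3 synovial libraries were the lowest, and synovial library 2 stood below the others. The log2 fold change was -0.50 ± 0.16 (limma, adjusted p = 0.0333). It was -0.32 without synovial library 2 (adjusted p = 0.112), and the call was also lost without arthritic node library 2 (0.0838) or arthritic node library 3 (0.126). Within a mouse, synovial Nlrc5 was 0.918, 0.553 and 0.702 times the node value.

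The trimming peptidase and the disulfide isomerase differed little. Erap1 had 2283, 2285 and 2158 normalized counts in synovial Tregs, 2323, 2291 and 2495 in arthritic node Tregs, and 2017, 2674 and 1988 in control node Tregs. The synovial values fell just under the arthritic node values and inside the range of the control node values, with a log2 fold change of -0.08 ± 0.13 (limma, adjusted p = 0.668). Pdia3 had 20759, 20855 and 20654 normalized counts in synovial Tregs, against 20933, 16983 and 19466 in arthritic node Tregs and 18302, 18396 and 18090.0 in control node Tregs. Its synovial values were nearly equal to each other and lay inside the arthritic node range, with a log2 fold change of 0.12 ± 0.09 (limma, adjusted p = 0.338). Under quantile normalization Pdia3 was at -0.43 (limma, adjusted p = 0.00361), a change of sign.

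**Figure D2:**
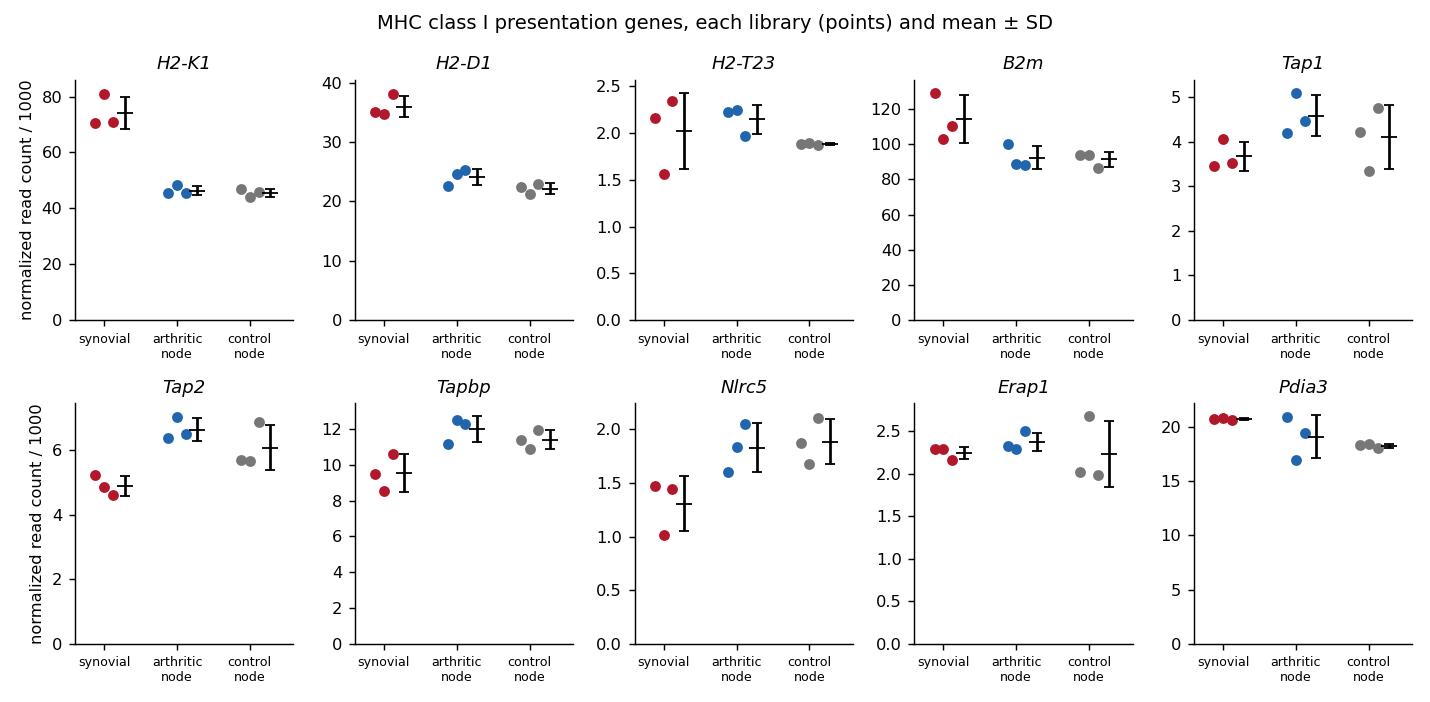
Normalized read counts, divided by 1000 (vertical axes, from 0), of the 10 genes in synovial, arthritic node and control node Tregs; points are libraries in the order of mouse number, and bars show the mean and SD of 3. H2-K1 averages 74192 in synovial Tregs, 46366 in arthritic node and 45617 in control node Tregs, while Tap2, Tapbp and Nlrc5 lie lowest in the synovium.

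Node Tregs of arthritic mice were close to node Tregs of control mice for all 10 genes. None of the 10 was called by limma, none had an unadjusted p under 0.05, and none was called by edgeR or DESeq2 on the recovered reads, in a comparison where 0.343% of all genes were called by limma and 9.08% had an unadjusted p under 0.05. The log2 fold changes ran from -0.04 for Nlrc5 to 0.19 for H2-T23, and their median was 0.09, against 0.01 over all genes tested. H2-T23 was the single gene of the 10 whose groups did not overlap, each arthritic node library being above each control node library, beside 7.89% of all genes in that direction and 14.9% in either. The 95% intervals bound the differences on the log2 scale: H2-K1 at -0.17 to 0.22, B2m at -0.22 to 0.25, Tap1 at -0.12 to 0.47 and Nlrc5 at -0.40 to 0.31. A difference of the size seen for H2-K1 between synovium and node therefore lay outside its interval in this comparison.

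Set against control node Tregs, from which they differ in both tissue and arthritis, synovial Tregs showed the same division. This comparison shares the synovial libraries with the tissue comparison. H2-K1 was higher by 0.70 ± 0.09 (limma, adjusted p = 7.31e-05), H2-D1 by 0.70 ± 0.09 (adjusted p = 5.77e-05) and B2m by 0.31 ± 0.11 (adjusted p = 0.0352), all on the log2 scale. Nlrc5 was lower at -0.54 ± 0.16 (limma, adjusted p = 0.0192) and Tap2 at -0.31 ± 0.11 (adjusted p = 0.0349). These 5 calls stand beside 40.1% of all genes, the 3 higher ones beside 21.6% and the 2 lower ones beside 18.5%. Tapbp was at -0.26 (limma, adjusted p = 0.0553) with no overlap of the libraries, and Tap1 was at -0.15 (adjusted p = 0.419) with overlap. The call of Nlrc5 was lost without synovial library 2 or control node library 3, with the highest adjusted p at 0.0702. The call of Tap2 was lost without synovial library 2, synovial library 3, arthritic node library 3 or control node library 3, with an adjusted p of up to 0.138. The call of B2m was lost without 6 of the 9 libraries, the exceptions being synovial library 2 and arthritic node libraries 1 and 2, with an adjusted p of up to 0.143. After quantile normalization H2-D1 was at 0.11 (limma, adjusted p = 0.333), B2m at 0.12 (0.354) and Tapbp at -0.78 (0.000123).

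**Figure D3:**
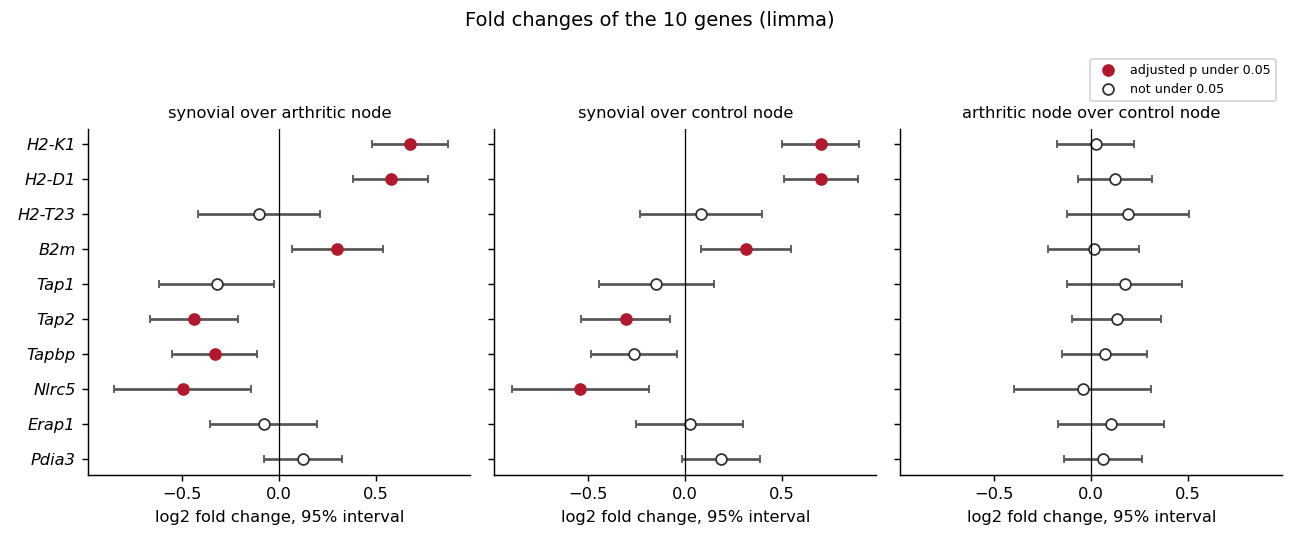
Log2 fold changes with 95% intervals (horizontal axes) of the 10 genes in 3 comparisons, synovial over arthritic node, synovial over control node and arthritic node over control node; filled points have a limma adjusted p under 0.05. H2-K1, H2-D1 and B2m lie right of 0 and Tap2 and Nlrc5 left of 0 in both comparisons with synovium, and all 10 intervals include 0 between the nodes.

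The unequal change can be read as ratios within a library, which do not depend on a common scaling factor. H2-K1 and H2-D1 were called higher and Tapbp lower in these same libraries, so their ratio restates those differences and is no further evidence. The summed counts of H2-K1 and H2-D1 were 11.2, 13.6 and 10.3 times those of Tapbp in synovial Tregs, against 6.10, 5.84 and 5.76 times in arthritic node Tregs and 6.09, 6.01 and 5.75 times in control node Tregs. The synovial ratios averaged 11.7 ± 1.70, far from the 5.90 ± 0.180 of arthritic node and the 5.95 ± 0.179 of control node Tregs (SD, n = 3 each), and node libraries of both kinds were almost equal. The same sum over B2m was 0.818, 1.13 and 0.987 in synovial Tregs, against 0.679, 0.821 and 0.801 in arthritic node Tregs. The lowest synovial ratio fell just under the highest arthritic node ratio, so these groups overlapped, at means of 0.977 ± 0.155 and 0.767 ± 0.0767. H2-K1 counts were 2.07 ± 0.234 times H2-D1 counts in synovial, 1.92 ± 0.105 times in arthritic node and 2.06 ± 0.0598 times in control node Tregs. With 3 libraries against 3, no exact permutation test can go below 0.10, so no p is given for the ratios.

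Divided by exon length, which makes genes comparable in level, B2m stood far above the rest. Its level was 132758 normalized counts per kb in synovial, 107456 in arthritic node and 106399 in control node Tregs. H2-K1 followed with 25253 counts per kb in synovial, 15781 in arthritic node and 15527 in control node Tregs, then H2-D1 with 13966 in synovial, 9380.2 in arthritic node and 8602 in control node Tregs. Pdia3, Tapbp and Tap2 came next in every group, and neighbours down to Tap2 did not overlap. H2-T23 and Tap1 overlapped each other in every group, at 700.1 and 670.2 counts per kb in synovial Tregs. Erap1 came ninth at 308 counts per kb in synovial Tregs, and Nlrc5 was the lowest in each group, at 154 in synovial, 215 in arthritic node and 222 in control node Tregs. Among all genes by normalized count, B2m ranked 3 in every synovial and arthritic node library, H2-K1 ranked 4 to 5 in synovial and 7 to 8 in node libraries, and Tapbp ranked 204 to 271 in synovial, 88 to 117 in arthritic node and 93 to 119 in control node libraries. The 10 genes together took 1.83% to 2.04% of normalized counts in synovial, 1.84% to 1.94% in arthritic node and 1.80% to 1.87% in control node libraries.

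The immunoproteasome genes, upstream of the transporter, were lower in synovial Tregs as well. Of 5 genes of the immunoproteasome and its activator, the interferon-inducible form of the protease that makes class I peptides, 5 fell, beside 15.9% of all genes, and none rose against arthritic node Tregs, with a median log2 fold change of -0.67. Psmb10 averaged 1628 ± 226 normalized counts in synovial, 3435.5 ± 317 in arthritic node and 3616 ± 226 in control node Tregs, with a log2 fold change of -1.08 ± 0.12 (limma, adjusted p = 3.63e-05). Psmb9, which lies next to Tap1, averaged 1720.5 ± 148 in synovial, 3026 ± 226 in arthritic node and 3068 ± 21.5 in control node Tregs, with a log2 fold change of -0.82 ± 0.11 (limma, adjusted p = 0.000106). Psmb8 was at -0.67 (limma, adjusted p = 0.00138) and the activator subunits Psme2 and Psme1 at -0.39 (0.00769) and -0.29 (0.0304). The Psme1 call was lost without synovial libraries 1 or 3 or arthritic node libraries 1 or 2, with an adjusted p of up to 0.113, and in a fit of the 6 arthritic libraries alone (0.0566, or 0.0699 with mouse number as a block). Of the 3 constitutive subunits that these replace, Psmb7 rose by 0.47 (limma, adjusted p = 0.0118), while Psmb5 at -0.06 and Psmb6 at 0.07 did not pass. The Psmb7 call was lost without arthritic node library 2 (adjusted p = 0.0553) and after quantile normalization (0.174). The ratio of Psmb10 to Psmb7, the subunit it replaces, was 0.852 ± 0.184 in synovial, 2.47 ± 0.263 in arthritic node and 2.53 ± 0.367 in control node Tregs (SD, n = 3 each), and that of Psmb9 to Psmb6 was 0.426 ± 0.0704 in synovial, 0.784 ± 0.0526 in arthritic node and 0.730 ± 0.0690 in control node Tregs. Neither ratio overlapped between synovial and node libraries, which restates the lower Psmb10 and Psmb9 values in the same libraries.

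**Figure D4:**
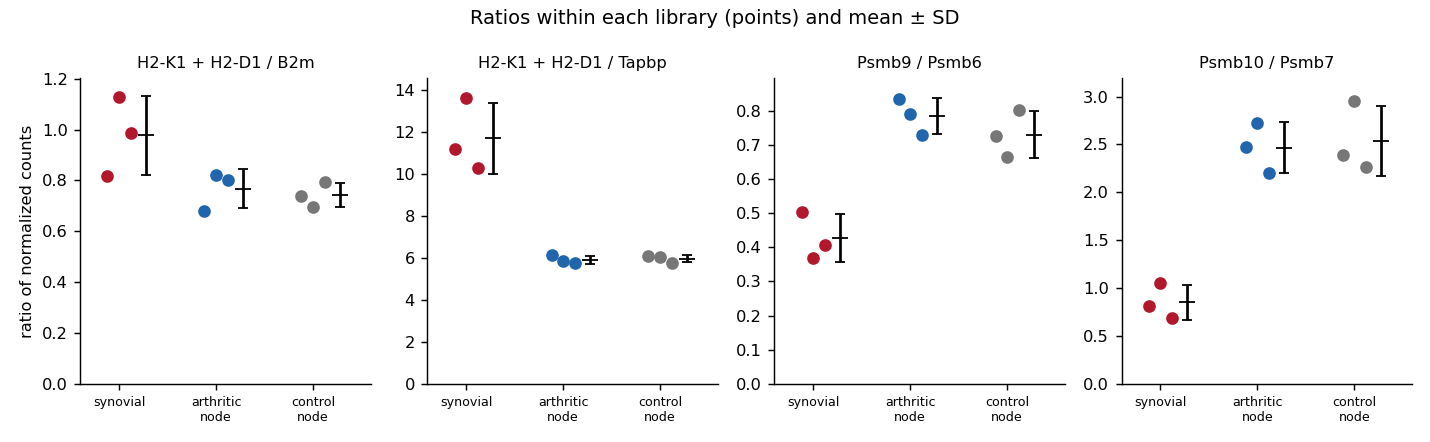
Ratios of normalized counts within each library (vertical axes, from 0) for synovial, arthritic node and control node Tregs; points are libraries, bars the mean and SD of 3. Heavy chain to Tapbp ratios are 10.3 to 13.6 in synovial Tregs and no more than 6.10 in nodes, and both immunoproteasome to constitutive subunit ratios are lowest in synovial Tregs.

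No other class I or class I-like heavy chain gene among those tested was called higher, beside 17.9% of all genes. Some of those tested had low counts. H2-L averaged 15.4 ± 1.91 in synovial and 10.2 ± 0.525 in arthritic node Tregs. Its 95% interval of -1.06 to 2.15 included the log2 fold change of H2-K1. Of 18 listed, 12 were tested, and against arthritic node Tregs 2 were called lower, a share close to the 15.9% over all genes, with a median log2 fold change of -0.35. The rest fell below the filter, with H2-Q6 and H2-Q7 at 0 in every library. H2-Q7 transcripts share 50-base stretches with those of H2-K1 and H2-D1, and the part of this in the zeros was not tested. H2-T24 averaged 156 ± 15.1 normalized counts in synovial, 777 ± 188 in arthritic node and 689.6 ± 135 in control node Tregs, with a log2 fold change of -2.29 ± 0.22 (limma, adjusted p = 1.02e-05). Mr1, which presents vitamin B metabolites to mucosal-associated invariant T cells, averaged 243 ± 64.3 in synovial, 502 ± 24.4 in arthritic node and 422 ± 31.1 in control node Tregs, with a log2 fold change of -1.07 ± 0.22 (limma, adjusted p = 0.00237). The 6 H2 and loading genes of the 10 on chromosome 17 lie between bases 33915899 and 36032855 (GRCm38), where 93 genes were tested, 9 were higher and 24 lower in synovial than in arthritic node Tregs, and the median was -0.33. Calls in either direction made up 35.5% of that interval's genes, beside 33.8% of all genes. The directions were unequal there, with 9 higher and 24 lower, beside 17.9% higher and 15.9% lower over all genes.

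Of 10 helpers of class I folding, 1 rose and 1 fell against arthritic node Tregs, shares below the 17.9% higher and 15.9% lower over all genes. Hspa5, the general chaperone BiP of the endoplasmic reticulum, averaged 43603 ± 3994 normalized counts in synovial, 17864 ± 1805 in arthritic node and 16810.3 ± 1442 in control node Tregs, with a log2 fold change of 1.29 ± 0.11 (limma, adjusted p = 2.87e-06). Ganab, a subunit of glucosidase II, was lower at -0.53 (limma, adjusted p = 0.0245), a call lost without synovial libraries 1 or 2 or arthritic node libraries 2 or 3, with an adjusted p of up to 0.0940. The lectin chaperones calreticulin (Calr) and calnexin (Canx) were at 0.24 and 0.29 and the tapasin relative Tapbpl at 0.29, without passing; leaving out synovial library 2 let Calr pass and leaving out synovial library 3 let Canx and Tapbpl pass. Of 7 peptidases tested, 2 were called higher and 1 lower, beside the same 17.9% and 15.9%. Tpp2 and Ide were higher at 0.42 and 0.60 and Lap3, an interferon-inducible aminopeptidase, was lower at -1.14 ± 0.24 (limma, adjusted p = 0.00259). Tpp2 lost its call without synovial library 1 or arthritic node libraries 1 or 3 (adjusted p up to 0.101). Of 9 genes of class I export and turnover, 4 rose (Sec22b 0.44, Tmed10 0.35, Derl1 0.53 and Sel1l 0.66, log2 fold changes) and none fell. The share called higher was 17.9% over all genes and 31.0% over genes with a mean of 1000 to 10000. The calls of Derl1 and Sel1l held whichever library was left out. That of Tmed10 was lost without arthritic node library 3 (adjusted p = 0.0562), and that of Sec22b was lost without synovial libraries 2 or 3 or any arthritic node library (up to 0.0910). After quantile normalization the calls of Tpp2, Ide, Sec22b, Tmed10 and Derl1 were lost.

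Among 19 regulators of class I transcription, the NF-κB subunits rose together and 3 interferon-side factors were lower. Of the 19, 5 were called higher and 3 lower in synovial than in arthritic node Tregs, beside 17.9% and 15.9% of all genes, and the 5 higher ones were the NF-κB subunit genes. Rel averaged 8369 ± 739.7 normalized counts in synovial, 549 ± 84.7 in arthritic node and 636 ± 80.8 in control node Tregs, with a log2 fold change of 3.93 ± 0.15 (limma, adjusted p = 5.49e-09). Nfkb2 was at 2.30, Relb at 2.02, Nfkb1 at 1.92 and Rela at 0.69, the Rela call being lost without synovial libraries 1 or 3 or arthritic node library 3 (adjusted p up to 0.0651) and after quantile normalization (0.0811). On the interferon side, Stat2 at -0.76 (limma, adjusted p = 0.0189), Irf9 at -0.58 (0.0294) and Irf2 at -0.31 (0.0453) were lower, while Irf1 at 0.05 (0.874) did not pass. These 3 calls were fragile. That of Stat2 was lost without synovial libraries 1 or 2 or arthritic node libraries 2 or 3 (adjusted p up to 0.0775), that of Irf9 without synovial libraries 1 or 3 or arthritic node libraries 1 or 2 (up to 0.113), and that of Irf2 without 7 of the 9 libraries, the exceptions being synovial library 2 and control node library 1 (up to 0.166). In a fit of the 6 arthritic libraries alone the Irf2 call was lost as well (0.0641, or 0.0674 with mouse number as a block).

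Of 8 genes of interferon receptors and their kinases, 3 rose, beside 17.9% of all genes, and none fell against arthritic node Tregs; Ifngr2, Ifnar2, Jak1, Tyk2 and Socs1 did not pass. Ifngr1, a chain of the interferon-γ receptor, had 55592, 67117 and 48771 normalized counts in synovial Tregs, against 9013, 11254 and 10997 in arthritic node Tregs and 8355, 8199 and 7421 in control node Tregs. Every synovial library was far above the highest node library, at a log2 fold change of 2.45 ± 0.13 (limma, adjusted p = 5.77e-08). Jak2, a kinase of that receptor, was at 3.19 ± 0.15 (adjusted p = 2.56e-08), and Ifnar1, a chain of the type I interferon receptor, was at 1.59 ± 0.14 (adjusted p = 3.60e-06). Between arthritic and control nodes, no gene of any of these 8 pathway lists was called.

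**Figure D5:**
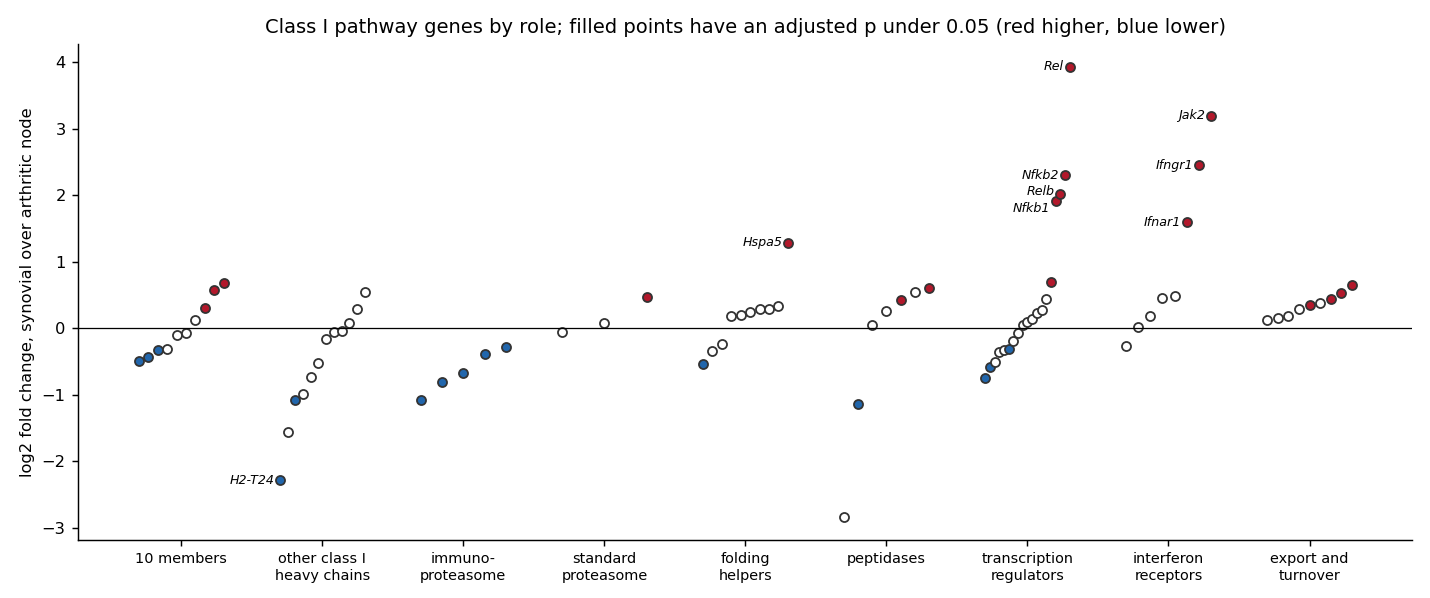
Log2 fold change, synovial over arthritic node (vertical axis), of the 10 genes and of 8 lists of other class I pathway genes by role; each point is a gene, filled red (higher) or blue (lower) where the limma adjusted p is under 0.05. All 5 immunoproteasome genes lie below 0. The NF-κB subunits Rel, Nfkb2, Relb and Nfkb1, the interferon receptor genes Ifngr1 and Ifnar1 and the kinase gene Jak2 lie highest.

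Markers of other cell types give the composition of the gates as far as RNA shows it. Dendritic cell genes, 10 in the list, summed to 13162 to 16211 normalized counts in synovial, 4559 to 5546 in arthritic node and 3112 to 4819 in control node libraries; most of this was Cd74, and Clec9a and Itgax were at 0 in all synovial libraries. Of the 6 dendritic markers tested, Zbtb46, Xcr1 and Cd74 were called higher against arthritic node libraries and none lower. Zbtb46 had 537 to 607 in synovial and 0 to 62.9 in arthritic node libraries, and Xcr1 had 307 to 540.1 in synovial and 19.2 to 23.5 in arthritic node libraries. The other 3 tested, H2-Aa, H2-Ab1 and H2-Eb1, did not pass, at log2 fold changes of -0.69, 1.19 and 0.88. B and plasma cell genes summed to 4668 to 6330 in synovial, 2467 to 2933 in arthritic node and 2599 to 3044 in control node libraries, mostly Xbp1, with Pax5 at 0 in synovium. Of the 4 tested genes of this list, Xbp1 was called higher in synovial than in arthritic node libraries and Cd79b lower. Cd79b averaged 281 ± 90.8 in synovial and 526 ± 121 in arthritic node libraries (limma, adjusted p = 0.0180). Cd79a and Igj did not pass. Macrophage and monocyte genes summed to 79.8 to 314 in synovial, 64.5 to 557 in arthritic node and 106 to 372 in control node libraries, and neutrophil genes to no more than 52.8 in any library. Lyz2 ranged over 0 to 48.1 in synovial and 8.66 to 307 in arthritic node libraries and did not pass, while Cd14 was called higher in synovium, at 66.3 to 196 in synovial and 0 to 14.9 in arthritic node libraries. Fibroblast genes summed to 3072 to 6451 in synovial, 3774 to 4605 in arthritic node and 4211 to 4388 in control node libraries, with Thy1, which T cells also express, the highest gene of the list in every library. Of this list, Sparc was called higher and Prg4 lower in synovial than in arthritic node Tregs. Synovial library 3 stood apart in this list: Sparc had 767.5 and Dcn 455 normalized counts there, against no more than 71.6 and 25.8 in the other synovial libraries. Without synovial library 3, the calls of H2-K1, H2-D1, Tap2, Tapbp and Nlrc5 were kept and that of B2m was lost. Endothelial genes summed to 1478 to 1741 in synovial, 2311 to 2967 in arthritic node and 2806 to 3370 in control node libraries, nearly all of it Pecam1, which T cells also express. Genes of CD8 T and natural killer cells summed to no more than 321 in any library. B2m alone was at least 86693 in every library, and the part of these cells in the class I values was not tested.

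Profiles over the 9 libraries show which genes moved most alike, measured as the root mean square difference between log2 profiles centred on each gene's mean, among 8064 genes with a mean of at least 100. Genes named Gm plus digits, ending in Rik, or ending in -ps with or without digits were left out of the 8064. Within the 10, H2-K1 and H2-D1 were the closest pair at 0.0995, followed by Tap2 with Tapbp and B2m with Pdia3, both at 0.123. H2-K1 and Nlrc5 differed by 0.611. Over all genes searched, the 3 closest to H2-K1 were Fam103a1 (0.0554), Bzw1 (0.0622) and Sec62 (0.0727), closer than H2-D1. Among the 3 closest to B2m were Snrnp25 (0.0765) and Nucks1 (0.0806). For Tap1 they were Ttc7 (0.0903), Nde1 (0.0995) and Irf2 (0.112), and for Nlrc5 they were Usp5 (0.0723), Arhgap4 (0.0916) and Dennd1c (0.0918). All of these libraries enter each profile, so closeness includes the difference between tissues.

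In the genome, 6 of the 10 genes lie in the MHC on chromosome 17 (GENCODE vM21, GRCm38): Tapbp at chr17:33915899-33929292, H2-K1 at chr17:33996017-34000347, Tap1 at chr17:34187553-34197225, Tap2 at chr17:34203527-34216321, H2-D1 at chr17:35262730-35267499 and H2-T23 at chr17:36029773-36032855. Pdia3 (chr2:121413775-121438687) and B2m (chr2:122147686-122153083) lie on chromosome 2, Nlrc5 on chromosome 8 (chr8:94434356-94527272) and Erap1 on chromosome 13 (chr13:74639568-74693201). Several share exon bases with neighbours: Tapbp shares 24.9% of its exon bases with the antisense gene Gm19412, Tap2 shares 14.1% with Gm15821 and Erap1 shares 11.5% with Cast, each on the other strand, and Tap1 shares 3.87% with Psmb9. The library kit marks strand, but the sources used here do not give the strand setting used in counting, so reads of these pairs may not have been separated.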

How the data were processed

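RNA of 9 sorted Treg libraries was sequenced, and groups and mouse numbers came from the sample titles. The members and gene lists were chosen with earlier results of these data known. The submitters' processing notes name HISAT2, HTSeq, DESeq2 and mm10; the sources used here give no tool versions and no annotation. The table deposited by the authors holds a normalized signal per gene, each read count being divided by the library's size factor: within 0.01, 100% of nonzero values were multiples of 1 constant per library. A deposited table of the authors' own comparison gives log2 fold changes and errors, a Wald test score, and p-values before and after adjustment, per the file headers. Its direction, synovial over arthritic node, was settled by rerunning DESeq2 on the recovered reads, with fold changes within 1.36e-06 over 15134 genes.

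The main test was limma 3.58.1 (R 4.3.3), with a mean-variance trend, on log2(value + 1), over genes with a mean of 10 or more, with all 9 libraries in each fit, two-sided, with Benjamini-Hochberg adjustment over all genes and a threshold of 0.05. Adding 1 understates the change of low genes. Alternatives were a pseudocount of 0.5 or 5, no filter or a mean of 50, the compared groups alone, mouse number as a block, TMM or quantile scaling, edgeR 4.0.16 (quasi-likelihood; tissue comparison 1850 higher and 1798 lower) and DESeq2 1.42.0 on recovered reads, and each library left out. Titles give synovial and node libraries of arthritic mice the same mouse numbers, read as the same animals; residuals of same-numbered libraries correlated at 0.0239, 0.0540 and 0.0891. Arthritic node library 1 correlated better with synovial library 2 (0.0414), and same-numbered arthritic and control node libraries, from other animals, reached 0.0703, so the pairing rests on the titles. No pair of libraries was identical. Scripts were tested on simulated counts. Named genes were the 10 members, genes of the 8 pathway lists, and the 3 genes nearest in profile to H2-K1, B2m, Tap1 and Nlrc5; some genes these rules allow are not reported here. The 50-base stretches came from GENCODE vM21 transcripts, and promoters from RefSeq.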

Additional observations from a re-analysis of the deposited data

How the results depend on the processing

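Across 1373 recomputed values, 1231 were the same, 90 lost and 13 gained a call, 15 counts moved and 24 values changed sign. A change of sign was counted as such whatever its adjusted p. Pdia3 after quantile normalization changed sign and also passed, against arthritic node (limma, adjusted p = 0.00361) and against control node (0.0150). The same meant direction and side of the threshold for fold changes, within 1.5 times for counts of calls, and within the group's SD for ratios. Some could not differ: TMM leaves a ratio within a library unchanged. Leaving out a library of the group not compared leaves a fold change unchanged, though its adjusted p can move. Synovial against arthritic node, 6 of the 10 genes were called, and 3 to 5 with a library left out, the 3 being without arthritic node library 2 or 3. Synovial against control node, 5 were called, 2 to 5 with a library left out, and 3 with the compared groups alone, with or without number as a replicate block. Between nodes, 39 genes of all tested were called, 0 with the compared groups alone, with or without the replicate block, 173 by DESeq2, and 0 to 66 with a library left out (0 without arthritic node library 2, 66 without control node library 3); none of the 10 was called in any of these. In the tissue comparison the arthritic libraries alone gave 5 calls among the 10, B2m being lost; adding the replicate block to that fit lost Tapbp and gained Tap1, again 5 calls. Control numbers pair no animals. Signs changed for values that had not passed. Under quantile normalization, tissue values were -0.43 for Pdia3, -0.22 for Psmb6, -0.072 for Calr, -0.23 for Canx and -0.17 for Irf1; synovial over control node, they were -0.15 for H2-T23, -0.22 for Erap1 and -0.33 for Pdia3. Erap1 there was also -0.000144 with TMM and -0.031 with edgeR. With a library left out, tissue values ranged over -0.22 to 0.070 for H2-T23, -0.031 to 0.14 for Psmb6 and -0.12 to 0.24 for Irf1; node values over -0.0065 to 0.046 for H2-K1, -0.046 to 0.045 for B2m, -0.13 to 0.049 for Nlrc5 and -0.0064 to 0.14 for Pdia3; and synovial over control node values over -0.034 to 0.26 for H2-T23 and -0.052 to 0.16 for Erap1. The cause of these changes was not tested. Depth limits none of the 10 genes, whose lowest value was 1014.5 normalized counts.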
